A study of Mus musculus with 20 samples.

Results

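Neuropeptide genes code for the precursors of secreted peptide transmitters, and 10 of them were followed in mouse brain: Vip, Sst, Npy, Cck, Penk, Pdyn, Tac1, Tac2, Crh and Cartpt. They were picked by gene name, with earlier results of these data known. All 10 were found among the 54532 genes of the deposited count table, and all 10 were among the 18336 genes with enough reads to be tested.

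RNA was taken from 1 hemisphere of the brain and sequenced after polyA selection, in 4 genotypes with 5 libraries each. DKO mice lacked both Glb1 and Neu3, Glb1KO mice lacked Glb1, Neu3KO mice lacked Neu3, and WT mice carried neither knockout. The product of Glb1 is a lysosomal beta-galactosidase that degrades GM1 ganglioside, and that of Neu3 is a sialidase that removes sialic acid from gangliosides. The series is titled as a study of whether Neu3 acts on GM1 to protect neurons in GM1 gangliosidosis, the storage disease caused by loss of Glb1. The labels named The Jackson Laboratory as the source of healthy mice and gave no age, sex, strain or allele design. They did not say whether each library came from a different animal, so the p-values measure the spread between these libraries, which may be partly technical.

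Neuropeptides are cut from larger precursors by convertases, stored in dense-core vesicles and released during strong firing, after which they act on G protein-coupled receptors. In the forebrain, Vip, Sst, Npy and Cck are made by classes of cortical and hippocampal GABA interneurons that overlap in part, and Cck also by excitatory neurons. Penk, Pdyn and Tac1 are the peptide precursors of the projection neurons of the striatum. Crh, Cartpt, Tac2 and again Vip are also made in hypothalamic nuclei. Several of these genes respond to neuronal activity through cAMP response elements (CREs), the DNA sites bound by the factor CREB.

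Total counts per library ran from 15162311 to 25145806 over the 20 libraries. The targeted gene Glb1 averaged 4 ± 1.07 CPM (counts scaled to library size with TMM factors) in DKO, 3.38 ± 0.903 in Glb1KO, 20.5 ± 1.34 in Neu3KO and 20.2 ± 1.32 in WT (SD, n = 5 each). Neu3 was low in all genotypes, at 2.98 ± 0.826 CPM in DKO, 4.06 ± 0.621 in Glb1KO, 2.86 ± 0.409 in Neu3KO and 3.85 ± 1.22 in WT, and its ranges overlapped between DKO, Neu3KO and WT, so the reads of Neu3 gave only a weak check of its labels. Identifiers in the labels began with E for libraries 1 and 2 of DKO, 4 and 5 of Glb1KO, 1 of Neu3KO and all of WT, with L for the other 3 Glb1KO libraries, and with W for the other DKO and Neu3KO libraries. What the letters stand for is not given in the sources used here, and they overlapped in part with genotype. Results are therefore given also with the letter as a term in the fit and within the E libraries. Markers of hindbrain and spinal cord, tissue that a hemisphere may or may not include, summed to 20.8 to 40.7 CPM in DKO, 14 to 31.7 in Glb1KO, 13.9 to 75.1 in Neu3KO and 61.7 to 99.5 in WT over 5 genes. The cerebellar markers summed to 1040 to 1660 CPM in DKO, 1810 to 2200 in Glb1KO, 1670 to 2200 in Neu3KO and 1930 to 2110 in WT over 7 genes. Their part in the values of the peptide genes was not tested.

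The 10 genes differed widely in level, which is compared between genes on the deposited FPKM values, which are scaled to gene length and library size. In WT libraries Sst was the most abundant at 170 ± 8.37 FPKM, followed by Cck at 126 ± 14.6, Penk at 90.1 ± 7.07 and Npy at 39.8 ± 3.39 FPKM (SD, n = 5 each). These 4 did not overlap in WT with the next gene down, and Sst stood above 99.3% of all tested genes. Tac1 at 9.24 ± 1.2, Pdyn at 9.13 ± 1.07, Cartpt at 7.84 ± 4.17, Crh at 5.51 ± 0.566 and Vip at 5.30 ± 0.266 FPKM formed a chain in which each overlapped its neighbour. Tac2 was the lowest, at 3.02 ± 0.285 FPKM, and lay below every Vip value in WT. The first 4 ranks were the same in all 4 genotypes. Vip ranked 7th in DKO, at a mean of 7.81 FPKM, against 9th in WT. Crh ranked 10th in DKO, at 3.72 ± 1.15 FPKM, against 8th in WT. Its DKO values overlapped those of Tac2, at 3.78 ± 0.806 FPKM in DKO, so the last 2 ranks were not set apart.

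**Figure D1:**
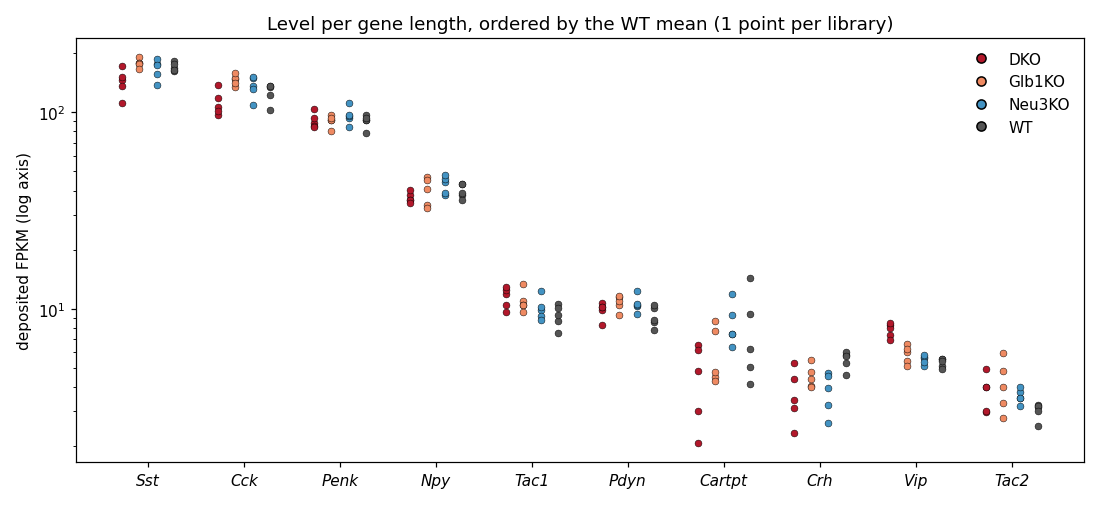
Deposited FPKM of each neuropeptide gene on a log axis, ordered by the WT mean from Sst to Tac2, with 1 point per library and the genotypes DKO, Glb1KO, Neu3KO and WT from left to right within each gene. Sst, Cck, Penk and Npy sit above 30 FPKM in every library, and the other 6 genes sit below 15 FPKM.

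Of the 10 genes, 4 differed between DKO and WT: Vip and Tac1 were higher in DKO, and Sst and Crh were lower (edgeR's quasi-likelihood test with Benjamini-Hochberg adjustment over all tested genes, adjusted p under 0.05). Over all genes, 29% were called in this comparison, 14% higher and 15.1% lower, so a count of 4 in 10 is close to the background. The median log2 fold change was -0.05 for the 10 genes, and 5 of them were above 0 and 5 below. Neither of the single knockouts had a called member against WT. For Glb1KO the background was 3.96%, 4 of the 10 had an unadjusted p under 0.05, as had 2975 of the 18336 genes, and DESeq2 called 0 of the 10. For Neu3KO the background was 0 of 18336 genes in edgeR, with 1105 genes at an unadjusted p under 0.05 and 2 genes called by DESeq2. Among the neuropeptide genes 2 of 10 had an unadjusted p under 0.05 in Neu3KO and DESeq2 called 0.

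**Figure D2:**
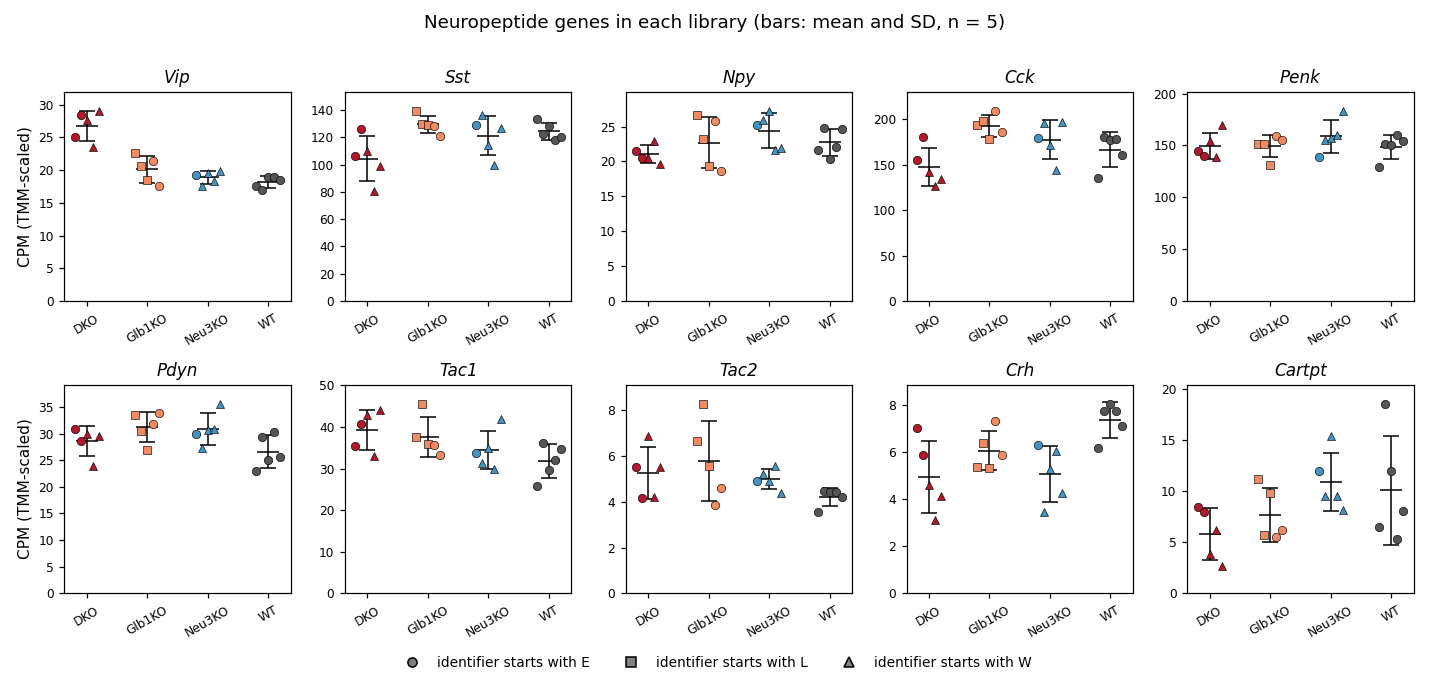
TMM-scaled CPM of the 10 neuropeptide genes in every library, by genotype (DKO, Glb1KO, Neu3KO, WT), with symbols for the first letter of the identifier and bars for the mean and SD of 5 libraries. The 5 DKO libraries of Vip, at 23.6 to 29.0 CPM, lie above all 15 others, while the genotypes overlap in the other genes.

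**Figure D3:**
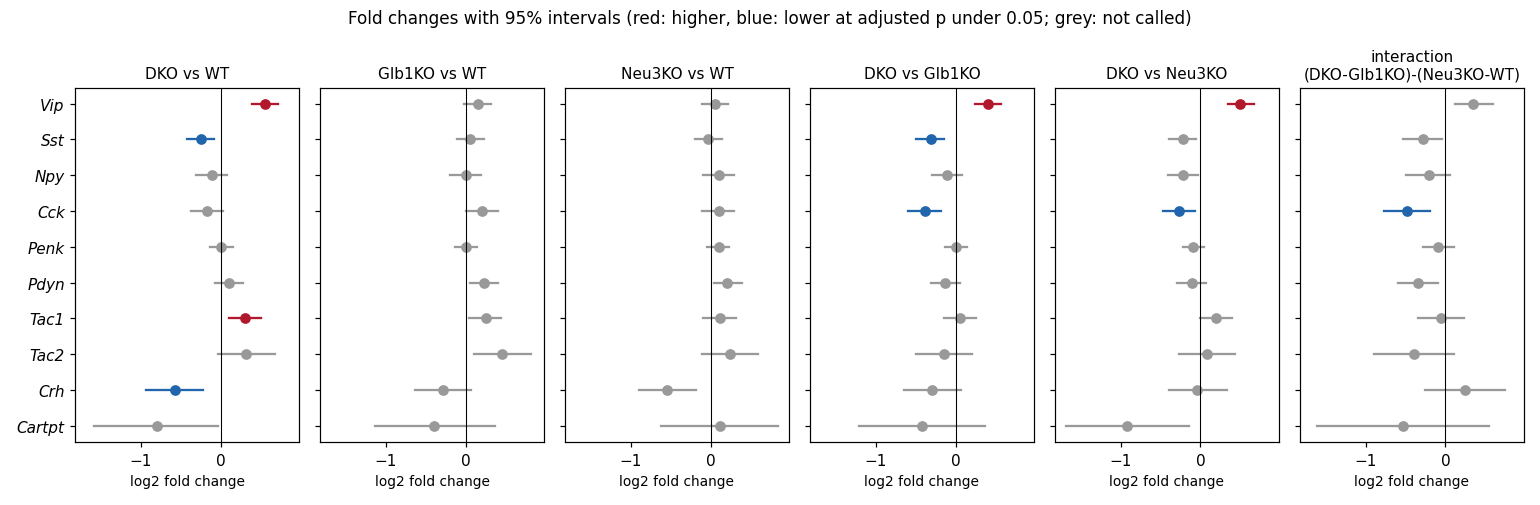
Log2 fold changes of the 10 genes with 95% intervals from edgeR in 6 comparisons, with called genes in red (higher) or blue (lower). Vip is the gene called higher in all 3 comparisons of DKO with another genotype, at 0.56, 0.41 and 0.50, and no gene is called in Glb1KO vs WT or Neu3KO vs WT.

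Vip (ENSMUSG00000019772, chr10:5639218-5647617 on the plus strand, GRCm38) codes for vasoactive intestinal peptide, which in cortex is made by interneurons that mainly inhibit other interneurons. Vip measured 25.1, 28.5, 27.6, 23.6 and 29.0 CPM in DKO, 22.6, 20.7, 18.5, 21.4 and 17.5 CPM in Glb1KO, 19.2, 17.5, 19.6, 18.4 and 19.8 CPM in Neu3KO, and 17.5, 17.0, 19.0, 19.0 and 18.5 CPM in WT. The lowest DKO library was above the highest library of each other genotype, and the other 3 genotypes overlapped. Vip was the 1 gene of the 10 whose DKO libraries all lay above another genotype. Over all genes, 9.28% did so against WT, 6.78% against Glb1KO and 8.43% against Neu3KO. In bulk tissue, a change in the number of cells that make a peptide cannot be told apart from a change in RNA per cell.

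The mean of Vip was 26.7 ± 2.30 CPM in DKO and 18.2 ± 0.925 CPM in WT (SD, n = 5 each), a log2 fold change of 0.56 (SE 0.08, 95% interval 0.39 to 0.72, edgeR adjusted p = 2.39e-06), or 46.9% more in DKO. The comparison of DKO with Glb1KO, in which 15.7% of all genes (8.41% higher, 7.29% lower) and 3 of the 10 (1 higher, 2 lower) were called, gave 0.41 (SE 0.08, edgeR adjusted p = 0.000402). Against Neu3KO, where 25.1% of all genes and 2 of the 10 were called, it was 0.50 (SE 0.08, edgeR adjusted p = 1.36e-05). These comparisons share the DKO libraries. In the single knockouts the log2 fold change of Vip against WT was 0.15 in Glb1KO (95% interval -0.02 to 0.32, edgeR adjusted p = 0.399) and 0.05 in Neu3KO (95% interval -0.11 to 0.22, edgeR adjusted p = 0.966). The interaction asks whether loss of Neu3 had the same effect with and without Glb1: it is the difference between DKO and Glb1KO, from which that between Neu3KO and WT is subtracted. For Vip it was 0.35 (95% interval 0.12 to 0.59, edgeR adjusted p = 0.0602) and did not pass. With unscaled library totals it was 0.39 and passed (edgeR adjusted p = 0.035), and with DESeq2 it was 0.36 and passed (adjusted p = 0.0365). It passed also without DKO 1 (0.38, edgeR adjusted p = 0.0458), without DKO 4 (0.40, edgeR adjusted p = 0.0382) or without Glb1KO 1 (0.40, edgeR adjusted p = 0.0391). It did not pass without any other single library. With the other scaling factors, the other filters, replicate numbers as a block, the letter as a term or the E libraries alone it did not pass either.

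The higher level of Vip in DKO was as large when the identifier letter was accounted for. With the letter as a term, the log2 fold change was 0.56 against WT (edgeR adjusted p = 6.54e-05), 0.47 against Glb1KO (edgeR adjusted p = 0.0171) and 0.50 against Neu3KO (edgeR adjusted p = 2.43e-05). Within the E libraries, 2 of DKO and 5 of WT, it was 0.57 (edgeR adjusted p = 0.000771). It was 0.47 against the 2 Glb1KO libraries with E (edgeR adjusted p = 0.0437). Against the single Neu3KO library with E, assumed to vary like the others, it was 0.48 and did not pass (edgeR adjusted p = 0.104). Within the W libraries Vip ran from 23.6 to 29.0 CPM in 3 DKO libraries and from 17.5 to 19.8 CPM in 4 Neu3KO libraries, without overlap. The L libraries were all Glb1KO. Leaving out any 1 library gave 0.52 to 0.60 against WT, 0.37 to 0.45 against Glb1KO and 0.47 to 0.54 against Neu3KO, all called, where the library left out was from 1 of the genotypes compared. In the authors' deposited table of DKO against WT, Vip had a log2 fold change of 0.56 and an adjusted p of 6.08e-09.

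Stretches of promoter are printed for Vip, Sst, Tac1 and Cck, the called genes with an entry in the RefSeq promoter table, because their promoters hold letters of the cAMP response element. Each is the 120 bases before the RefSeq start, read 5′ to 3′ on the strand of the gene (GRCm38.p6), at chr10:5639098-5639217 on the plus strand for Vip, chr16:23890845-23890964 on the minus strand for Sst, chr6:7554941-7555060 on the plus strand for Tac1 and chr9:121495695-121495814 on the minus strand for Cck. Capitals mark the full element TGACGTCA in Sst, and its first 5 letters TGACG, or their reverse complement, in the others.
Vip: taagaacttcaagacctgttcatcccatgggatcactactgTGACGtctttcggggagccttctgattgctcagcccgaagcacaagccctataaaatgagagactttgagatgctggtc
Sst: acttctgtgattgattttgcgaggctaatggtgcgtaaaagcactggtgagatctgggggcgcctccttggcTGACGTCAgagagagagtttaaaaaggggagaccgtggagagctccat
Tac1: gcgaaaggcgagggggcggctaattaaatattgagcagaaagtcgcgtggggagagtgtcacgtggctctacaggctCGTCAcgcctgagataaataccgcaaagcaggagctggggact
Cck: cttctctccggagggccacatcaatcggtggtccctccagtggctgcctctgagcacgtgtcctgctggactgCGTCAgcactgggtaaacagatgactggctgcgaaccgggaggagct

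RefSeq promoters were matched for 8 of the 10 genes, all but Penk and Crh, and 250 bases before each start were searched on both strands. TGACGTCA was found in Sst, at -48 to -41, and in Cartpt, at -112 to -105, and in 1.55% of 32851 promoter windows of the mouse. TGACG was found in Vip at -79 to -75, in Cck at -47 to -43 and in Tac1 at -43 to -39 and -197 to -193, besides Sst and Cartpt where it lies within the full element, and in 17.8% of all windows. Neither was found in the windows of Npy, Tac2 and Pdyn, which has 2 starts. The genes with these letters include Vip and Tac1, which were higher in DKO than in WT, and Sst, which was lower. Cck and Cartpt, which also hold them, were not called in that comparison.

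Genes that neurons switch on with activity, many of them through CREB, were set beside the peptide genes. In DKO against WT, 13 of 14 were lower and 0 were higher, where 15.1% of all genes were lower, and the list's median log2 fold change was -1.15. The 4 with the smallest adjusted p in edgeR were Bdnf, a neurotrophin (-0.72, adjusted p = 3.96e-07), the transcription factor genes Egr1 (-1.27, adjusted p = 4.72e-07) and Npas4 (-1.72, adjusted p = 4.74e-06), and Arc, a synaptic gene (-1.57, adjusted p = 1.08e-05). The sum of the list was 423 to 595 CPM in DKO, 700 to 1130 in Glb1KO, 897 to 1150 in Neu3KO and 1080 to 1410 in WT, so DKO lay below the other genotypes. The count was 13 with the letter as a term and 13 within the E libraries. In DKO against Glb1KO it was 10 of 14, but 3 with the letter as a term and 4 within the E libraries. In DKO against WT, Vip and Tac1 were higher, and Sst and Crh were lower, as this list was. With the letter as a term the calls of Sst, Tac1 and Crh were lost, and that of Vip was kept. The part of neuronal activity in the values of the peptide genes was not tested.

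Sst (ENSMUSG00000004366, chr16:23889573-23890958 on the minus strand) codes for somatostatin, an inhibitory peptide of interneurons that contact dendrites. Sst measured 106, 126, 110, 80.8 and 98.9 CPM in DKO, 139, 130, 129, 128 and 121 CPM in Glb1KO, 129, 136, 114, 100 and 127 CPM in Neu3KO, and 133, 122, 128, 118 and 120 CPM in WT. In DKO, 4 of 5 libraries were below every WT and Glb1KO library, and DKO 2 lay inside both ranges. The log2 fold change was -0.25 against WT (SE 0.08, edgeR adjusted p = 0.025), -0.31 against Glb1KO (SE 0.08, edgeR adjusted p = 0.0101) and -0.22 against Neu3KO (SE 0.08, edgeR adjusted p = 0.0526), so the last did not pass. Against Neu3KO it passed with DESeq2 (-0.22, adjusted p = 0.0428) and with no filter on low counts (-0.22, edgeR adjusted p = 0.00223). It passed also without DKO 2 (-0.29, edgeR adjusted p = 0.00567) or Neu3KO 4 (-0.28, edgeR adjusted p = 0.00856). The interaction of -0.28 did not pass (edgeR adjusted p = 0.175). It did without DKO 2 (-0.35, edgeR adjusted p = 0.0399) and with no filter on low counts (-0.29, edgeR adjusted p = 0.0156).

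Against WT and Glb1KO the lower Sst in DKO depended on the identifier letter, and against WT also on single libraries. Against Glb1KO it was called in all 10 fits without 1 DKO or Glb1KO library, at -0.38 to -0.23 (edgeR adjusted p up to 0.0322). Against WT the call was lost without DKO 4 (-0.17), DKO 5 (-0.23), WT 1 (-0.22) or WT 3 (-0.24), with edgeR adjusted p from 0.0614 to 0.0861, and with unscaled library totals (-0.21, edgeR adjusted p = 0.0624). Once the letter was a term, it was -0.14 against WT (edgeR adjusted p = 0.342) and -0.14 against Glb1KO (edgeR adjusted p = 0.551), neither called. Among the E libraries it was -0.09 against WT (edgeR adjusted p = 0.522) and -0.10 against Glb1KO (edgeR adjusted p = 0.673). The DKO libraries with W averaged 96.5 CPM and those with E 116 CPM. Against Neu3KO, where both letters occur in both genotypes, the value with the letter as a term was -0.27 and passed (edgeR adjusted p = 0.00969).

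Cck (ENSMUSG00000032532, chr9:121489824-121495694 on the minus strand) codes for cholecystokinin, which is made by a class of basket cells and also by excitatory neurons of cortex. Cck measured 155, 181, 142, 127 and 134 CPM in DKO, 194, 198, 178, 209 and 186 CPM in Glb1KO, 180, 196, 172, 144 and 197 CPM in Neu3KO, and 135, 181, 177, 179 and 161 CPM in WT. Of the DKO libraries, 4 lay below every Glb1KO library, and DKO 2 lay above the lowest of them. The Glb1KO values were the highest of the 4 genotypes on average, 193 ± 11.9 CPM, against 167 ± 19.1 CPM in WT (SD, n = 5 each), a log2 difference of 0.21 that was not called (edgeR adjusted p = 0.281). DKO and WT overlapped, at -0.17 (95% interval -0.37 to 0.03, edgeR adjusted p = 0.205), although this passed without DKO 2 (-0.25, edgeR adjusted p = 0.0322).

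Against Glb1KO, Cck was lower in DKO by a log2 fold change of -0.38 (SE 0.10, edgeR adjusted p = 0.00842), and it was called without each library in turn, at -0.46 to -0.34. The value was -0.30 with the letter as a term (edgeR adjusted p = 0.214) and -0.22 within the E libraries (edgeR adjusted p = 0.423), neither called. Against Neu3KO it was -0.27 (SE 0.10, edgeR adjusted p = 0.0481), and that call was lost in 8 of the 10 fits without 1 DKO or Neu3KO library, all but those without DKO 2 or Neu3KO 4, at -0.28 to -0.22 with adjusted p from 0.0591 to 0.128. It was lost also with upper-quartile factors (-0.26), with unscaled totals (-0.22), in a fit of DKO and Neu3KO alone (-0.26) and within the E libraries (-0.09), but not with the letter as a term (-0.32, edgeR adjusted p = 0.0151). Cck was also the 1 gene of the 10 with a called interaction, -0.48 (95% interval -0.77 to -0.19, edgeR adjusted p = 0.0371), where 6.84% of all genes were called. That call was lost in 12 of the 20 fits without 1 library, at -0.49 to -0.42 with adjusted p from 0.0507 to 0.0762. It was kept without DKO 1, DKO 2, Glb1KO 3, Neu3KO 3, Neu3KO 4, WT 2, WT 3 or WT 4. With unscaled library totals the interaction of Cck was -0.44 and did not pass (edgeR adjusted p = 0.0532), and under that scaling Vip was the gene called. It was -0.56 with the letter as a term and passed (edgeR adjusted p = 0.0289), and within the E libraries it was -0.34 and did not (edgeR adjusted p = 0.657).

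Cck lies on chromosome 9, 7.01 Mb from Glb1, in a region that can stay linked to a targeted allele through breeding. Of the 296 tested genes within 10 Mb of Glb1, 29.1% were called in DKO against WT and 15.5% in DKO against Glb1KO, where all genes gave 29% and 15.7%. In Glb1KO against WT the shares were 3.72% near Glb1 and 3.96% over all genes. The part of linked sequence in the values of Cck was not tested.

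Npy (ENSMUSG00000029819, chr6:49822710-49829507 on the plus strand) codes for neuropeptide Y, which many Sst interneurons also make. Npy spanned 19.6 to 23 CPM in DKO, 18.6 to 26.7 CPM in Glb1KO, 21.6 to 27.2 CPM in Neu3KO and 20.4 to 24.8 CPM in WT. All genotypes overlapped and no comparison was called. The log2 fold changes of DKO were -0.11 against WT, -0.11 against Glb1KO and -0.22 against Neu3KO, the last with an edgeR adjusted p of 0.0905.

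Tac1 (ENSMUSG00000061762, chr6:7554879-7565834 on the plus strand) codes for the precursor of substance P and neurokinin A, made in striatum by the neurons of the direct pathway. Tac1 measured 35.4, 40.8, 42.8, 33.1 and 44.0 CPM in DKO, 37.7, 45.6, 35.8, 35.6 and 33.2 CPM in Glb1KO, 33.8, 31.4, 34.9, 30 and 41.9 CPM in Neu3KO, and 25.9, 36.2, 29.7, 32.1 and 34.7 CPM in WT. DKO and WT overlapped, with 3 DKO libraries above all of WT. The log2 fold change of DKO against WT was 0.31 (SE 0.10, edgeR adjusted p = 0.0195), and that of Glb1KO against WT was 0.25 (95% interval 0.04 to 0.45, edgeR adjusted p = 0.195). With no filter on low counts the Glb1KO value passed (0.25, edgeR adjusted p = 0.0481). DKO differed from Glb1KO by 0.06 (95% interval -0.14 to 0.26). Against Neu3KO the difference of 0.19 did not pass (edgeR adjusted p = 0.171), but it did without Neu3KO 5 (0.27, edgeR adjusted p = 0.0455). The call against WT was lost without DKO 5 (0.26, edgeR adjusted p = 0.0649) or WT 1 (0.25, edgeR adjusted p = 0.0644). The letter as a term gave 0.27 (edgeR adjusted p = 0.109) and within the E libraries 0.28 (edgeR adjusted p = 0.111).

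The striatal opioid precursors were not called in any comparison. Penk (ENSMUSG00000045573, chr4:4133531-4138819 on the minus strand) codes for the enkephalins of indirect-pathway neurons. Penk measured 139 to 170 CPM in DKO libraries, 131 to 159 CPM in Glb1KO, 139 to 183 CPM in Neu3KO and 129 to 160 CPM in WT. Its log2 fold change of DKO against WT was 0.01 with a 95% interval of -0.13 to 0.15, which is a fold of 0.916 to 1.11. Over all 6 comparisons Penk stayed between -0.09 and 0.10.

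Pdyn (ENSMUSG00000027400, chr2:129686565-129699844 on the minus strand) codes for dynorphin, the peptide of the kappa opioid receptor. Its levels were 23.9 to 30.9 CPM in DKO, 26.9 to 33.9 CPM in Glb1KO, 27.3 to 35.6 CPM in Neu3KO and 22.9 to 30.3 CPM in WT. The log2 fold change against WT was 0.10 in DKO (edgeR adjusted p = 0.405), 0.23 in Glb1KO (edgeR adjusted p = 0.142) and 0.21 in Neu3KO (edgeR adjusted p = 0.767). The interaction of -0.34 did not pass (95% interval -0.59 to -0.09, edgeR adjusted p = 0.0939).

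Crh (ENSMUSG00000049796, chr3:19693401-19695396 on the minus strand) codes for corticotropin-releasing hormone, which drives the stress axis from the hypothalamus and is also made by cortical interneurons. Crh measured 7.01, 5.86, 4.6, 3.1 and 4.14 CPM in DKO, 5.37, 6.36, 5.32, 7.31 and 5.87 CPM in Glb1KO, 6.29, 3.46, 5.25, 6.04 and 4.26 CPM in Neu3KO, and 6.16, 7.73, 8.04, 7.72 and 7.08 CPM in WT. The 2 DKO libraries with an E identifier were the highest of their genotype. Of these, DKO 1 lay inside the WT range, and DKO 2 lay below all of WT. The 3 DKO libraries with W were also below all of WT. The log2 fold change of DKO against WT was -0.57 (SE 0.17, edgeR adjusted p = 0.0124), the largest among the called differences of the 10 genes. It was -0.28 in Glb1KO (edgeR adjusted p = 0.444) and -0.54 in Neu3KO (edgeR adjusted p = 0.689, unadjusted p = 0.00417), neither called. In Neu3KO, 4 of 5 libraries were below all of WT, and the fifth, the 1 with an E identifier, was not.

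Within the E libraries Crh ran from 5.86 to 7.01 CPM in 2 DKO libraries, from 5.87 to 7.31 in 2 Glb1KO libraries, was 6.29 in 1 Neu3KO library and ran from 6.16 to 8.04 in WT. There the log2 fold change of DKO against WT was -0.18 (edgeR adjusted p = 0.616), and with the letter as a term over all libraries it was -0.26 (edgeR adjusted p = 0.372). Without DKO 4 it was -0.44 and not called (edgeR adjusted p = 0.0537). No WT library carried a W, so for Crh the genotype and the letter cannot be told apart in the comparison of all DKO with WT libraries.

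**Figure D4:**
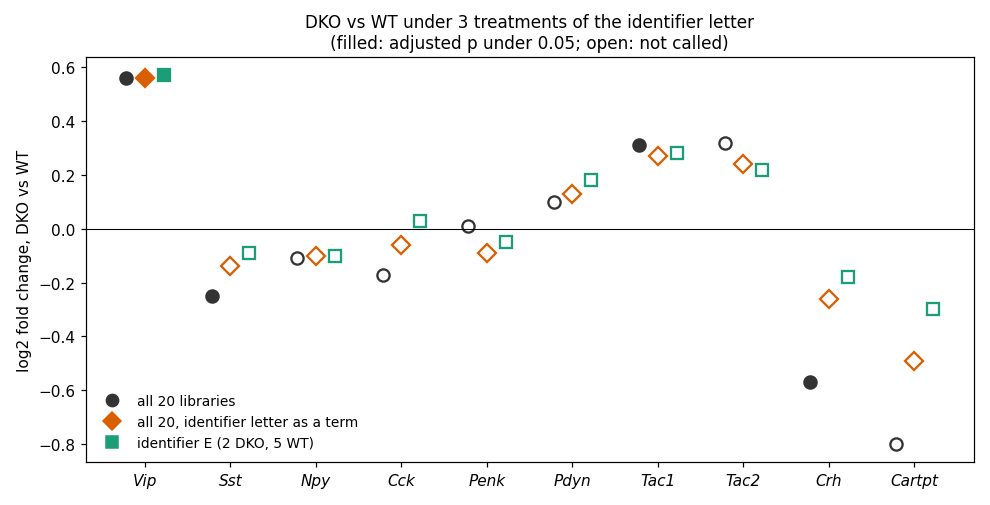
Log2 fold change of DKO against WT for each neuropeptide gene in 3 fits: all 20 libraries, all 20 with the identifier letter as a term, and the 2 DKO and 5 WT libraries with an E identifier. Filled symbols passed an adjusted p of 0.05. Vip keeps its value and its call at 0.56, 0.56 and 0.57, and Sst, Tac1 and Crh are called in the first fit only.

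Tac2 (ENSMUSG00000025400, chr10:127724478-127731768 on the plus strand) codes for neurokinin B. Tac2 lay at 4.14 to 6.85 CPM in DKO, 3.85 to 8.28 CPM in Glb1KO, 4.39 to 5.56 CPM in Neu3KO and 3.53 to 4.46 CPM in WT. The log2 fold change against WT was 0.32 in DKO (edgeR adjusted p = 0.176), 0.46 in Glb1KO (edgeR adjusted p = 0.145) and 0.25 in Neu3KO (edgeR adjusted p = 0.908), none called. Without Glb1KO 4 the Glb1KO value was 0.58 and passed (edgeR adjusted p = 0.0481).

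Cartpt (ENSMUSG00000021647, chr13:99898489-99901091 on the minus strand) codes for the CART peptides, which in the hypothalamus act on feeding. It was the most variable of the 10 genes within WT, with a coefficient of variation of 53.1%, against 4.87% for Sst. Cartpt measured 8.43, 7.93, 3.89, 6.21 and 2.65 CPM in DKO, 11.2, 5.76, 9.85, 5.51 and 6.19 CPM in Glb1KO, 12, 9.57, 15.4, 9.56 and 8.21 CPM in Neu3KO, and 6.53, 18.6, 12, 5.35 and 8.04 CPM in WT. The log2 fold change of DKO was -0.80 against WT (95% interval -1.58 to -0.03, edgeR adjusted p = 0.115) and -0.92 against Neu3KO (edgeR adjusted p = 0.0776). Against Neu3KO it passed with DESeq2 (-0.91, adjusted p = 0.0496), in a fit of DKO and Neu3KO alone (-0.91, edgeR adjusted p = 0.0468) and with the letter as a term (-1.09, edgeR adjusted p = 0.0365).

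Among 20 tested genes for the receptors of these peptides and the CRH binding protein, 10 were lower in DKO than in WT and 0 were higher, against 15.1% lower over all genes. The median log2 fold change of the list was -0.34, and -0.003 over all genes. The 10 were Cckbr, the main brain receptor of cholecystokinin (-0.60), the somatostatin receptors Sstr2 (-0.74), Sstr1 (-0.44), Sstr3 (-0.43) and Sstr4 (-0.40), the delta and mu opioid receptors Oprd1 (-0.53) and Oprm1 (-0.48), the CRH receptor Crhr1 (-0.38), the VIP receptor Vipr1 (-0.37) and the CRH binding protein Crhbp (-0.31). The remaining VIP receptor, Vipr2, was at 0.24 (edgeR adjusted p = 0.602). The kappa receptor Oprk1 was at 0.32 (edgeR adjusted p = 0.0581). Oprk1 passed with unscaled library totals (0.37), with DESeq2 (0.33), with a minimum mean of 1 CPM (0.33) and without DKO 5 (0.41), WT 5 (0.39), Glb1KO 4 (0.32) or Neu3KO 3 (0.33). The receptors of tachykinins and of Npy were not called in DKO against WT. Cckbr averaged 28.3 CPM in DKO, 37.5 in Glb1KO, 41.3 in Neu3KO and 42.9 in WT, and Sstr2 averaged 9.67, 13.3, 15.3 and 16.1 CPM in the same order.

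Leaving out 1 library left 8 to 10 of these genes called lower in DKO than in WT. Vipr1 lost its call without DKO 3, DKO 4 or WT 1 (edgeR adjusted p up to 0.0685), Oprm1 without DKO 3 or WT 5 (up to 0.0621), and Crhbp without DKO 4, WT 2, WT 4 or WT 5 (up to 0.121). Accounting for the letter left 5 lower, with Oprk1 higher (0.42, edgeR adjusted p = 0.0366). Those 5 were Cckbr (-0.57), Sstr3 (-0.48), Sstr2 (-0.45), Oprd1 (-0.42) and Crhr1 (-0.33). Within the E libraries 3 were lower, namely Cckbr (-0.58, edgeR adjusted p = 0.0147), Sstr3 (-0.46, edgeR adjusted p = 0.00789) and Oprd1 (-0.32, edgeR adjusted p = 0.0478), and Oprk1 was higher (0.46, edgeR adjusted p = 0.0373). In Glb1KO against WT the receptor with the smallest adjusted p was Sstr1, at -0.37 (edgeR adjusted p = 0.0609), and Cckbr was at -0.20 (edgeR adjusted p = 0.276). In DKO against Glb1KO, Cckbr (-0.40), Oprd1 (-0.44) and Sstr2 (-0.46) were lower, and none was higher, where 7.29% of all genes were lower. There the call of Oprd1 was lost without Glb1KO 4 (edgeR adjusted p = 0.0571), and that of Sstr2 without any 1 of DKO 3, 4 or 5 or Glb1KO 1, 3, 4 or 5 (up to 0.118). In DKO against Neu3KO, 9 were lower and 0 higher, where 2343 of all 18336 genes were lower. These were Cckbr (-0.55), Sstr2 (-0.66), Oprd1 (-0.55), Sstr4 (-0.51), Sstr3 (-0.42), Crhr2 (-0.89), Crhbp (-0.37), Sstr1 (-0.34) and Npy1r (-0.22). Leaving out 1 library left 6 to 9 called lower, and Npy1r lost its call in 6 such fits. In the interaction 2 were lower, where 528 of 18336 genes were. Npy1r was among them, but 16 fits without 1 library did not keep its call.

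The genes that cut the precursors and build dense-core vesicles moved in both directions. In DKO against WT, 3 of 19 were higher and 10 were lower, against 14% and 15.1% over all genes, with a median log2 fold change of -0.16. Cpe, the carboxypeptidase that trims the ends of the cut peptides, was higher at 0.53 (edgeR adjusted p = 1.61e-09), averaging 2580 CPM in DKO and 1790 CPM in WT. Scg3, a sorting protein of the granules, was also higher, at 0.31 (edgeR adjusted p = 4.4e-05). Chga, which codes for chromogranin A, a granule core protein, was lower at -0.48 (edgeR adjusted p = 1.03e-08), and Cadps, a priming factor of vesicle release, was lower at -0.27 (edgeR adjusted p = 2.84e-05). These 4 had the smallest adjusted p of the list, and all 4 were called with the letter as a term, at 0.50, 0.29, -0.43 and -0.21. In the E libraries alone they were at 0.53, 0.33, -0.39 and -0.17, also called. In Glb1KO against WT, Cpe was higher at 0.20 (edgeR adjusted p = 0.0267) and Cpd, a related carboxypeptidase, was lower at -0.24 (edgeR adjusted p = 0.0143). That call of Cpe was lost without Glb1KO 1, 2 or 5 or WT 1 (up to 0.0921), and that of Cpd without Glb1KO 2 or WT 3 (up to 0.0822). With the letter as a term neither was called, at 0.18 for Cpe and -0.20 for Cpd.

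Enzymes that break down released peptides were higher in DKO than in WT in 4 of 10 genes and lower in 1, against 14% and 15.1% over all genes. Nln, neurolysin, was higher at 0.67 (edgeR adjusted p = 5.98e-10) and Anpep, aminopeptidase N, at 1.47 (edgeR adjusted p = 2.55e-07), while Ece1, endothelin-converting enzyme, was lower at -0.32 (edgeR adjusted p = 0.000452). Ace, the angiotensin-converting enzyme, was higher at 0.35 (edgeR adjusted p = 0.000815), and the fourth higher gene was the neprilysin gene Mme. Nln averaged 52.5 CPM in DKO, 39.4 in Glb1KO, 33.1 in Neu3KO and 33.0 in WT. Anpep averaged 10.8 CPM in DKO, 4.87 in Glb1KO, 3.91 in Neu3KO and 3.91 in WT. Within the E libraries Nln (0.70), Anpep (1.34) and Ece1 (-0.34) were called, and Ace (0.21) and Mme (0.36, edgeR adjusted p = 0.0594) were not. Microglial markers, which moved in the same direction, were higher in DKO in 4 of 6 genes and summed to 235 ± 27.7 CPM in DKO, 170 ± 2.61 in Glb1KO, 169 ± 9.69 in Neu3KO and 156 ± 13 in WT (SD, n = 5 each), with the lowest DKO library at 192 CPM and the highest WT library at 164 CPM. Their part in the values of these enzymes was not tested.

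**Figure D5:**
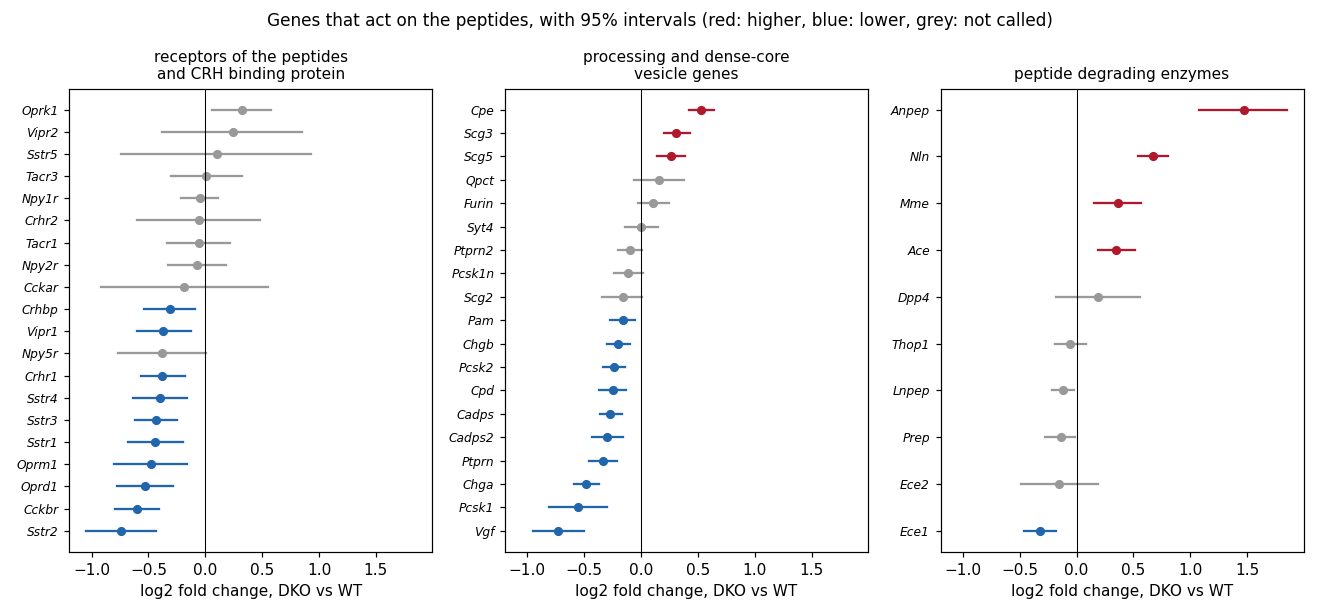
Log2 fold changes of DKO against WT with 95% intervals for the receptors with the CRH binding protein, the processing and vesicle genes and the degrading enzymes of the peptides, with called genes in red (higher) or blue (lower). In the first panel 10 of 20 genes are called lower and 0 higher, and the other lists hold calls in both directions.

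Of 45 other neuropeptide genes, 25 were tested and 20 fell below the filter for low counts. Their median log2 fold change of DKO against WT was -0.33, with 5 of the 25 above 0. The median was -0.1 with the letter as a term and -0.01 within the E libraries, where 30 were tested. In DKO against WT, 0 were higher and 2 were lower, where 15.1% of all genes were: Apln, the precursor of apelin (-1.25, edgeR adjusted p = 3.82e-14), and Pthlh, the parathyroid hormone-like peptide (-0.82, edgeR adjusted p = 0.00518). Apln averaged 14.3 CPM in DKO, 29.6 in Glb1KO, 38.1 in Neu3KO and 34.0 in WT, and was -1.22 with the letter as a term and -1.13 within the E libraries, both called. Pthlh was -0.77 and not called within the E libraries (edgeR adjusted p = 0.105). In DKO against Glb1KO, Cort, which codes for the somatostatin relative cortistatin, was lower too, at -1.07 (edgeR adjusted p = 0.00134), but not with the letter as a term (-0.76, edgeR adjusted p = 0.212).

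Markers of the cells that make the peptides were set beside these values. Among 21 markers of GABA interneurons, 2 were higher and 5 lower in DKO than in WT, with a median log2 fold change of -0.03. The shares over all genes, against which these and the following marker counts are read, were 14% higher and 15.1% lower. Their sum ran from 1890 to 2160 CPM in DKO, 2020 to 2170 in Glb1KO, 1900 to 2240 in Neu3KO and 2070 to 2200 in WT. The markers called with the smallest adjusted p were Lamp5 (-0.57), a marker of neurogliaform cells, the vesicular GABA transporter gene Slc32a1 (-0.25), Nos1 (0.26) and Prox1 (-0.24). Of these, Lamp5 (-0.44) and Slc32a1 (-0.20) were called with the letter as a term, and Nos1 and Prox1 were not. Prox1 lost its call also without DKO 2, DKO 5 or WT 3 (edgeR adjusted p up to 0.135). Gad1 and Gad2, which make GABA, were at -0.01 and -0.03, and the count of lower markers was 2 with unscaled library totals. Without 1 library that count ran from 2 to 5.

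Of 16 tested markers of striatal projection neurons, 2 were higher and 2 lower in DKO than in WT, with a median of 0.01, and the dopamine receptor genes Drd1 and Drd2 were at 0.01 and -0.10. Of 10 markers of cortical excitatory neurons, 1 was higher and 4 were lower, with a median of -0.15. The 5 tested markers of hypothalamus, a source of Crh and Cartpt, had a median of -0.07. Astrocyte markers were higher in 4 of 5 genes and oligodendrocyte markers lower in 5 of 5. Pan-neuronal markers were lower in 3 of 8 in DKO against WT and in 8 of 8 in DKO against Glb1KO, the comparison in which Sst and Cck were lower and 7.29% of all genes were. Against Glb1KO that count was 3 of 8 with the letter as a term and 1 of 8 within the E libraries. The calls of Sst and Cck were lost in both fits. Pan-neuronal markers summed to 5280 to 5800 CPM in DKO and 6400 to 6570 CPM in Glb1KO. They summed to 6150 to 6850 CPM in Neu3KO and 5960 to 6380 CPM in WT. Their part in the lower Sst and Cck was not tested.

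The likeness of genes was measured as the Pearson r of log2 CPM less the genotype mean over the 20 libraries, as a description. The libraries share their depth, scaling and dissection, and the search ran over 14057 protein-coding genes. For Vip the most alike genes were Sh3rf2 (r = 0.79), Dyrk3 (0.77) and Grn (0.74), and for Sst they were Caly (0.89), Rraga (0.85) and Kif5a (0.83). Penk was most like Arpc2 (0.91) and Tac1 most like Sh3gl3 (0.86). Cartpt was most like Dleu7 (0.88), Igsf1 (0.86) and Tph2 (0.81). For Cck the closest was Snap47 (0.83), for Crh Snx3 (0.83), for Tac2 Lgals9 (0.82), for Npy Utp4 (0.78) and for Pdyn Tmem167b (0.76).

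Among the 45 pairs of the 10 genes, Penk and Pdyn were the most alike, with a Pearson r of 0.71 and a Spearman rho of 0.69 over 20 libraries. Their 2-sided permutation p within genotypes was 0.00189 for r and 0.00232 for rho, and 0.085 and 0.104 after Benjamini-Hochberg adjustment over 45 pairs, so no pair passed. Without the 2 libraries farthest from the median of Penk, r was 0.69. Sst and Cck had r = 0.62 and rho = 0.46 (permutation p = 0.0164 and 0.071, adjusted 0.27 and 0.53), and r was 0.43 without the 2 libraries farthest from the median of Sst.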

How the data were processed

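The 10 genes and all gene lists were chosen with earlier results of these data known. Alternatives for the gene lists were added after the data were seen. The authors deposited raw read counts per gene, FPKM values per gene and a table of DKO against WT with log2 fold changes and p-values, per the file headers. The submitters' processing notes name fastp, HISAT2 2.0.5, featureCounts 1.5.0-p3, DESeq2 1.20.0, mm10 and GRCm38, without roles or a strand setting.

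Counts of the 20 libraries were filtered with edgeR's filterByExpr, scaled with TMM factors and fitted with a mean per genotype in edgeR 4.0.16 (robust quasi-likelihood test, Benjamini-Hochberg adjustment over all 18336 tested genes, threshold 0.05) under R 4.3.3. Standard errors were derived from the F statistic. FPKM were used only to compare levels between genes. Likeness used edgeR log2 CPM with a prior count of 2. All 10 genes were tested in every comparison, but not every value is printed. From each list up to 4 called genes with the smallest adjusted p are named. For the receptor list, which includes Crhbp, every gene called between DKO and another genotype is named. Other genes named, such as Vipr2, Oprk1, Mme, Gad1, Gad2, Drd1 and Drd2, were chosen after their values were seen. Total-count scaling raised the share of calls that were higher in DKO: against WT 3112 higher and 2068 lower, beside 2558 and 2765 with TMM, against Glb1KO 1807 and 1017 beside 1542 and 1337, against Neu3KO 2807 and 1651 beside 2263 and 2343, and in the interaction 854 and 356 beside 727 and 528. Methods were tested on simulated counts. No libraries were identical (highest r 0.9901), and no sample column went unmapped. Alternatives were DESeq2 1.42.0, other scaling and filters, fits restricted to both groups compared, replicate numbers as a block, the letter as a term, the E libraries alone, and each library left out in turn.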

Additional observations from a re-analysis of the deposited data

Results flagged for a closer look

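In Glb1KO 3, Penk measured 131 CPM, and the nearest of the other 4 Glb1KO libraries was at 151 CPM. Taken on rounded CPM, that gap was 0.714 of the range of the genotype, narrowly above the 0.71 that Dixon's test allows for 5 values. It was 1 such case among 40 groups of 5 libraries, where chance gives about 2. The difference tied to loss of Neu3 was not the same for Cck with and without Glb1: the interaction, the difference between DKO and Glb1KO from which that between Neu3KO and WT is subtracted, was -0.48 on the log2 scale, a called interaction that 12 of 20 fits without 1 library did not keep. DKO was at 148 CPM and Glb1KO at 193 CPM, while Neu3KO was at 178 CPM and WT at 167 CPM, as means of 5 libraries.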

How the results depend on the processing

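Vip kept its direction and its call in DKO against WT and against Glb1KO under every alternative run, and the causes of the changes below were not tested. Of the 10 genes, 1 was called in DKO against WT and 1 in DKO against Glb1KO with the identifier letter as a term, and again 1 and 1 within the E libraries. In DKO against Neu3KO the count was 1 with upper-quartile factors, 1 with unscaled totals, 4 with DESeq2, 4 with the letter and 0 within E. In the interaction it was 2 with no filter on low counts, 2 with DESeq2 and 0 within E, and in Glb1KO against WT it was 1 with no filter. Leaving out 1 library gave 2 to 5 genes in DKO against WT, 1 to 3 in DKO against Neu3KO, 0 to 2 in the interaction and 0 to 1 in Glb1KO against WT.

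Over all genes the letter as a term gave 3363 calls in DKO against WT, 315 in Glb1KO against WT and 1203 in DKO against Glb1KO. Among the E libraries these were 2583, 323 and 901, with 882 in DKO against Neu3KO, 183 in the interaction and 1 in Neu3KO against WT. There the lone Neu3KO library was assumed to vary like the others, and fewer libraries were used. Neu3KO against WT gave 26 calls with no filter, 2 with DESeq2, 3 in a fit of both groups alone and 0 to 1 without 1 library. The interaction had no fit of the compared groups alone.

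Among the 10 genes, signs turned only for log2 fold changes that were not called. Of the called genes of the other lists tried, Stmn2, a pan-neuronal marker at -0.21 in DKO against Glb1KO, turned to 0.01 within E. Npy in Glb1KO against WT, at 0, was 0.01 with upper-quartile factors, 0.01 with unscaled totals and 0 with either other filter, and Crh in DKO against Neu3KO was 0.01 with unscaled totals. With the letter as a term, Penk was -0.09 in DKO against WT, -0.04 in Neu3KO against WT and -0.16 in DKO against Glb1KO. Sst was 0.13 in Neu3KO against WT, Tac2 was 0.24 and Cartpt 0.3 in DKO against Glb1KO, and the interaction was 0.08 for Tac1, 0.09 for Tac2 and -0.01 for Crh. Within E, Cck was 0.03 and Penk -0.05 in DKO against WT, Sst 0.07 and Penk -0.09 in Neu3KO against WT, and Penk -0.12, Tac2 0.21 and Cartpt 0.49 in DKO against Glb1KO. Penk was 0.04, Tac2 -0.01 and Crh 0.04 there in DKO against Neu3KO, and the interaction was 0.06 for Tac1 and 0.25 for Cartpt.

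Leaving out 1 library gave -0.04 to 0.04 for Penk in DKO against WT and -0.04 to 0.04 in DKO against Glb1KO. In Glb1KO against WT it gave -0.04 to 0.05 for Penk and -0.07 to 0.06 for Npy. In Neu3KO against WT it gave -0.07 to 0.03 for Sst and -0.04 to 0.46 for Cartpt. For Tac2 it gave -0.25 to 0.02 in DKO against Glb1KO and -0.03 to 0.15 in DKO against Neu3KO, for Crh -0.19 to 0.09 in DKO against Neu3KO, and for Tac1 -0.11 to 0.02 in the interaction. Replicate numbers did not pair the libraries, with a correlation of same-numbered deviations of -0.13 to 0.06. With the replicate number as a block, 3 of the 10 genes were called in DKO against Neu3KO, Sst among them (-0.22, edgeR adjusted p = 0.0126), and it changed no other call of the 10.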
